A study of Mus musculus with 3 samples.

Results

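In mouse embryoid bodies (EBs) given C2 ceramide, a cell-permeable ceramide with a short acyl chain, 190 protein-coding genes stood clearly higher than in control EBs of the same day or of the day before. They were selected on measured values: TPM (a transcript level corrected for gene length and library size) with C2 ceramide on day 4 was more than 2 times the TPM of both DMSO libraries, on day 3 and on day 4, and the same held for counts divided by the library total. The 190 members were found among 11681 protein-coding genes that reached 100 counts in 1 library or more (1.63%). These 11681 genes, called the genes tested, were part of 21936 protein-coding genes and 55487 genes in the table. Since the ratios of C2 ceramide over DMSO chose the members, they are described below without a test, and no count of members supports them. Every member passed the count filter in the C2 ceramide library, its highest, so a gene with few counts could pass only by being high there.

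The EBs were aggregates of E14K mouse ES cells, a single wild-type line, formed in hanging drops without LIF, the cytokine that holds ES cells undifferentiated, and then kept in suspension. The 3 libraries, 1 per condition, came from control EBs on day 3, control EBs on day 4, and EBs on day 4 that had received 30 μM C2 ceramide since the start of day 3. The controls are named by their solvent, DMSO, in the deposited tables, and the cell line, genotype and LIF-free medium were common to all 3 conditions. Without a replicate no difference between conditions could be tested, and each interval given is a 95% counting interval, which leaves out variation between cultures. In bulk EBs, fewer cells of a type and less RNA per cell cannot be told apart.

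Several gene systems that are well studied in ES cells recur among the members. In the integrated stress response, kinases that sense amino acid shortage, misfolded protein or other stress phosphorylate the translation factor eIF2, and the transcription factor ATF4 is then translated and switches on genes for amino acid synthesis, amino acid import and stress signalling. Naive pluripotency is the state of ES cells that resembles the early inner cell mass. LIF and its effector STAT3 uphold it through transcription factors of the Klf, Tbx and nuclear receptor families, and it is normally left behind as EBs differentiate.

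Total counts were between 33619197 and 35290094 per library, and the median log2 TPM ratio over all genes tested was 0.05 for C2 ceramide over DMSO day 3 and −0.02 over DMSO day 4. Defining markers placed the libraries apart. Markers that are themselves members (Zfp42, Hesx1, Tubb3, Dazl, Col1a2, Trib3 and Chac1) were left out of the sums that follow. The summed TPM of 4 pluripotency markers was 1145 on DMSO day 3, 762 on DMSO day 4 and 1148 with C2 ceramide, about equal in the first and the last. Pou5f1 made up most of this sum, at 949, 628 and 911 TPM. The others, Sox2, Nanog and Esrrb, were each higher with C2 ceramide than on DMSO day 3. Epiblast markers summed to 1170, 802 and 625 TPM, 5 primitive streak and mesoderm markers to 36.1, 430 and 31.3, and 3 definitive endoderm markers to 5.14, 616 and 4.28. Of 3 blood markers, Ptprc was at 0 in both DMSO libraries, and the sums for blood, trophoblast and visceral endoderm stayed between 1.52 and 5.42 TPM in every library. The 3 germ cell markers left summed to 24.3, 35.3 and 61.4 TPM, of which Dppa3 alone held 16.5, 28.8 and 52.8. Ddx4 was at 7.20, 4.81 and 6.36 TPM, and Nanos3 had 8, 21 and 29 counts. The 2 neural plate markers left summed to 0.738, 0.43 and 1.45 TPM, 3 neuronal markers to 1.62, 0.714 and 0.99, and 2 fibroblast markers to 1.86, 1.68 and 3.50. Ddit3, the only marker of stressed cells that is no member, was at 22.8, 15.2 and 41.0 TPM. The part of such cells in the values below was not tested.

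With C2 ceramide the members had a median of 5.24 TPM and ranged from 0.609 to 951 TPM, where all genes tested had a median of 16.5 TPM. Of the 190, 69 reached 10 TPM and 15 reached 100 TPM, while 58 had under 200 counts. Together they held 0.66% of all TPM with C2 ceramide, 0.244% on DMSO day 3 and 0.232% on DMSO day 4. Their median log2 ratio was 1.59 over DMSO day 3 and 1.66 over DMSO day 4. The smaller of the TPM folds was at least 4 in 33 members and at least 8 in 4 (Pcdhga8, Irak3, Msc and Chac1, named here after their values were seen), and it was under 2.5 in 81. For 108 members (56.8%) the whole counting interval lay above 2 for both ratios and both units, and for all 190 it lay above 1. Taken alone, the TPM ratio over DMSO day 4 was above 2 in 558 genes tested (4.78%) and that over DMSO day 3 in 649 (5.56%). Both ratios contain the same C2 ceramide library, so the values of the members in each are only set side by side.

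**Figure D1:**
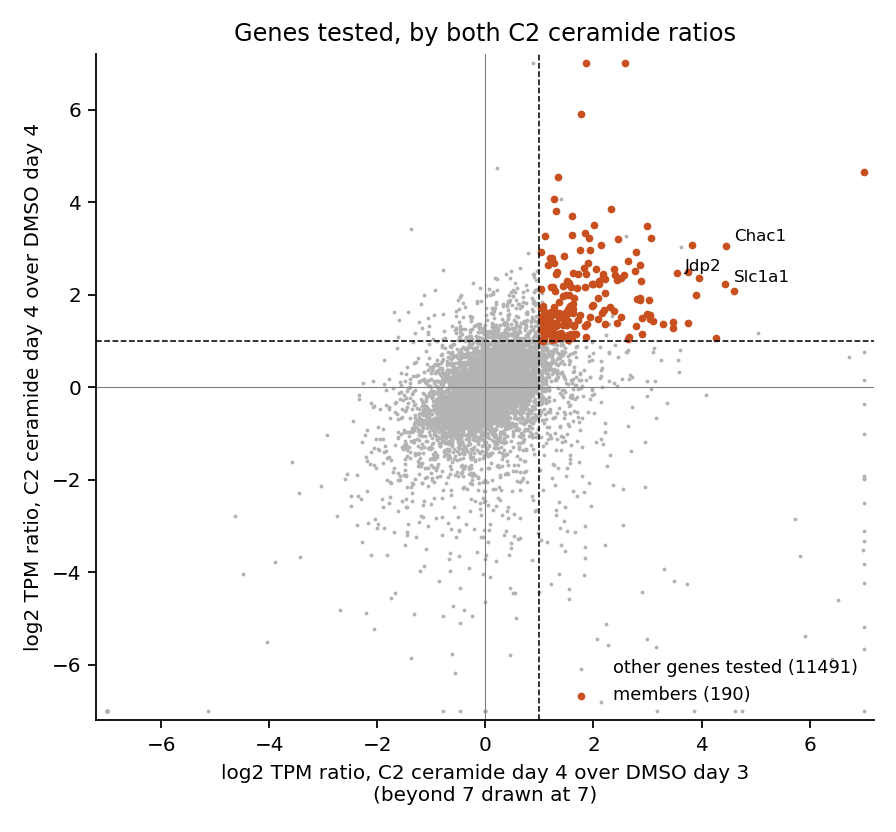
C2 ceramide against DMSO day 3 (horizontal) and against DMSO day 4 (vertical), as log2 TPM ratios, for the 11681 genes tested, 1 point a gene, with dashed lines at a ratio of 2. The 190 members lie above both lines by construction, Chac1 at 4.45 and 3.06, the 30 other points above both met the TPM part of the rule only, and values beyond 7 are drawn at 7.

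At the border of the rule the values were nearly continuous. The smallest of the 4 folds that the rule uses (TPM and counts, against each DMSO library) was 2.002 for Pcdhga1, 2.003 for Gprin1 and for Rhbdl3, and 2.007 for Fam169b and for Aoah, the members just inside. Just outside, it was 1.999 for Mpped2, 1.985 for Slc52a3, 1.98 for Lgals3, 1.977 for Itgb3 and 1.955 for Plpp1. A further 30 genes met the TPM part of the rule alone and 17 the count part alone. No member was at 0 counts in both DMSO libraries, and a few were at 0 in 1 of them. Against a limit of 3 counts in that library, Pcdhga8 was at least 41.4-fold higher with C2 ceramide than on DMSO day 3, and Fut1 at least 85.5-fold higher than on DMSO day 4. Pcdhga8 and Pcdhga1 share their last exons with the other genes of the gamma protocadherin cluster, so their counts could be split among them in several ways.

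Genes of the integrated stress response formed the first group. Of 21 genes tested on a list of this response and of ATF4 targets, 11 were members (52.4%, beside 1.63% of all genes tested). This list and those below were chosen with earlier results of these data known, so such shares are descriptions only. Over DMSO day 4, 13 of the 21 had a TPM ratio above 2 (4.78% of all genes tested) and none below 0.5. Chac1, an enzyme that degrades glutathione and a standard readout of ATF4 activity, was at 3.74 TPM on DMSO day 3, 9.79 on DMSO day 4 and 81.6 with C2 ceramide. It thus stood highest by a wide margin with C2 ceramide, with a log2 ratio of 3.06 (interval 2.91 to 3.21) over DMSO day 4, and it was also higher on DMSO day 4 than on DMSO day 3. Trib3, a pseudokinase that restrains ATF4, was at 14.7, 16.1 and 87.0 TPM, the libraries being given in this order from here on. Nupr1, a small stress-induced chromatin protein, was at 7.71, 7.31 and 48.3 TPM. Both were alike in the DMSO libraries, and their log2 ratios over DMSO day 4 were 2.43 (interval 2.33 to 2.54) and 2.72 (interval 2.45 to 3.00).

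Repressors of the AP-1 family belonged to the same list. Jdp2, a dimerization partner of Jun, was at 2.21 TPM on DMSO day 3, 4.70 on DMSO day 4 and 25.9 with C2 ceramide. Atf3, a rapidly induced relative of ATF4, was at 3.08, 6.04 and 22.4 TPM. Both increased in the order of the libraries, and their log2 ratios over DMSO day 4 were 2.46 (interval 2.24 to 2.69) and 1.89 (interval 1.71 to 2.07). Stc2, a secreted glycoprotein of calcium and phosphate balance, was at 1.42, 2.10 and 7.03 TPM. Atf4 itself, whose protein is controlled mainly at translation, was among the most abundant members, at 124 TPM on DMSO day 3, 143 on DMSO day 4 and 315 with C2 ceramide. Its log2 ratio over DMSO day 4 was 1.14 (interval 1.10 to 1.18). The remaining members of the list, Adm2, Herpud1, Gpt2 and Cebpb, had TPM folds between 2.54 and 3.15 over DMSO day 4.

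Some genes of the list that were not members passed 2-fold against 1 control only, and others were lower with C2 ceramide. Ddit3, the stress transcription factor CHOP, was at 22.8, 15.2 and 41.0 TPM, a fold of 2.70 over DMSO day 4 and of 1.80 over DMSO day 3. Sesn2, a leucine sensor, was likewise 2.18-fold above DMSO day 4 and 1.67-fold above DMSO day 3. Ddit4 was lowest with C2 ceramide, at 37.9, 31.9 and 19.3 TPM, and so was Ero1l, an oxidase of the endoplasmic reticulum, at 55.4, 43.0 and 24.4 TPM. Of 20 genes tested on a list of endoplasmic reticulum chaperones and unfolded protein response genes, none was a member. Beside 1.63% of all, 20 genes are too few to read from a count of 0. The highest fold over DMSO day 4 on this list was 1.15. The chaperone Hspa5, the most used marker of that response, was at 481, 508 and 453 TPM.

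Enzymes that make amino acids and one-carbon units came next, with 5 of 15 genes tested being members (33.3%, beside 1.63% of all). Their folds were moderate, since 8 genes of this list met the rule at a threshold of 1.5 and 0 at 3. Mthfd2, a mitochondrial enzyme of the folate cycle, was at 45.7 TPM on DMSO day 3, 46.2 on DMSO day 4 and 141 with C2 ceramide. Asns, which makes asparagine, was at 143, 195 and 431 TPM, the third highest level among all members with C2 ceramide. Mthfd2 did not differ between the DMSO libraries beyond its counting interval, whereas Asns was already higher on DMSO day 4, with a log2 ratio of 0.44 (interval 0.40 to 0.49) over DMSO day 3. Psat1 and Psph, consecutive enzymes of serine synthesis, were at 89.1, 103 and 224 TPM and at 28.5, 34.4 and 72.4 TPM. Pck2, the mitochondrial enzyme that makes phosphoenolpyruvate from oxaloacetate, was at 19.03, 25.2 and 72.7 TPM. The interval of Psph over DMSO day 4 reached down to 0.98 on the log2 scale, slightly under a ratio of 2, and those of the other 4 enzymes lay above it. Phgdh, which opens the serine pathway, was 1.72-fold above DMSO day 4, and Shmt2 was 1.54-fold above it, both under the threshold. Cbs, of the pathway that consumes serine to make cysteine, was lowest with C2 ceramide, at 19.13, 12.9 and 10.7 TPM.

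Of 19 amino acid transporter genes tested, 3 were members (15.8%, beside 1.63% of all). Slc7a1, an importer of arginine and lysine, was at 7.09 TPM on DMSO day 3, 5.68 on DMSO day 4 and 25.5 with C2 ceramide. Slc6a9, a glycine importer, was at 1.18, 2.24 and 8.58 TPM, and Slc7a5, which exchanges large neutral amino acids, at 54.6, 54.2 and 137 TPM. Slc6a9 was higher on DMSO day 4 than on day 3, Slc7a1 was lower, and Slc7a5 was even. Slc3a2, the partner chain of Slc7a5, was at 237, 219 and 411 TPM, 1.88-fold above DMSO day 4. Slc7a3, another arginine importer, was not a member because of its day 3 level: it was at 214 TPM on DMSO day 3, 57.0 on DMSO day 4 and 237 with C2 ceramide. Slc38a3 was lower with C2 ceramide, at 4.16, 5.44 and 1.36 TPM. The cytosolic aminoacyl-tRNA synthetases, which load tRNAs and include many ATF4 targets, held no member among 20 genes tested. In 15 of the 20 the TPM with C2 ceramide was above both DMSO libraries (34.7% of all genes tested), and their folds over DMSO day 4 lay between 0.904 and 1.90.

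**Figure D2:**
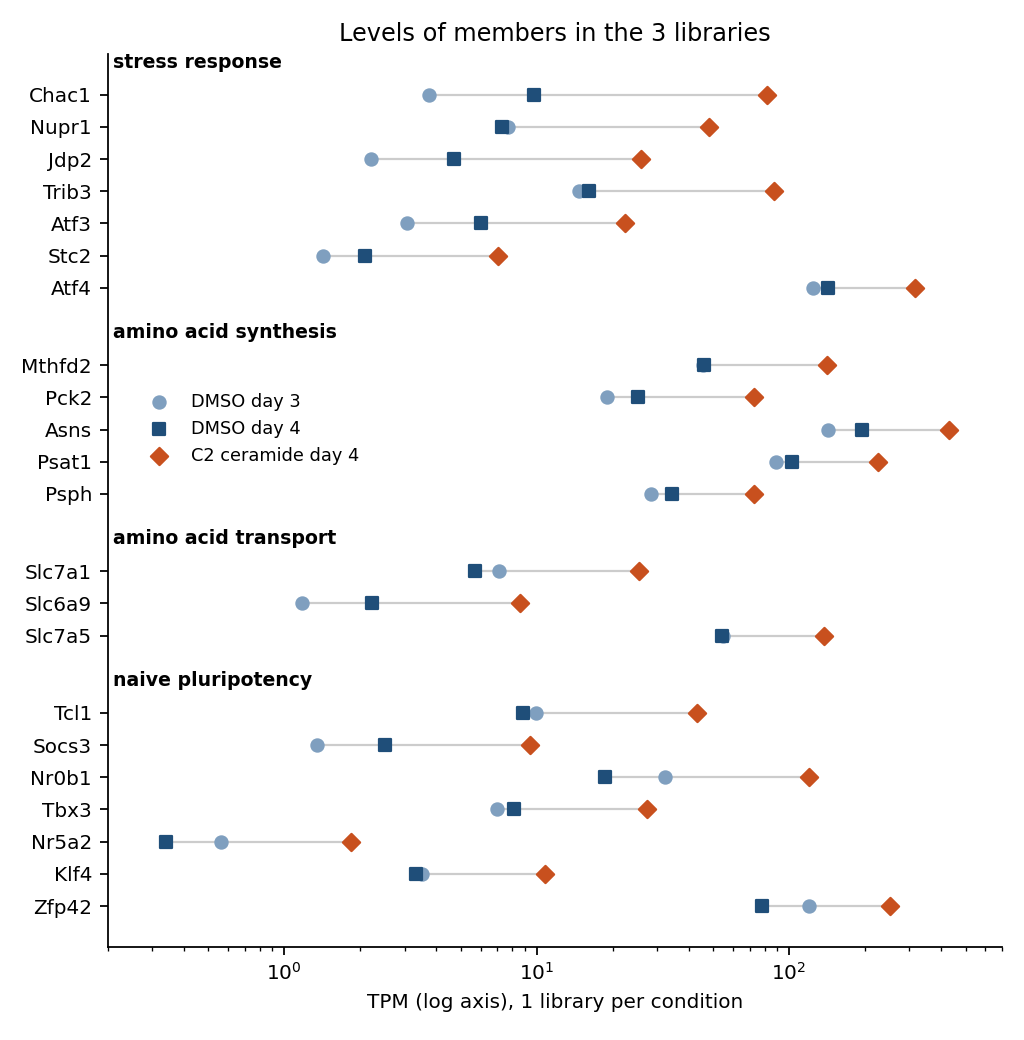
TPM on a log axis for 22 members of 4 gene lists in the 3 libraries, 1 symbol per library. In each row C2 ceramide lies farthest to the right, and the DMSO symbols nearly coincide for Mthfd2 and Slc7a5.

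The bases before the transcription start were searched for 10 short motifs on both strands. RefSeq promoter windows (GRCm38.p6) within 1000 bases of the start of the leading transcript were found for 121 of the 190 members and for 8671 of the genes tested, and the 250 bases before the start were read. The letters TGATGNAA, the core of the amino acid response element that ATF4 binds with a C/EBP partner, were in 17 of the 121 members (14.0%) and in 147 of the 8671 genes (1.7%). Of the members on the stress response list 5 of 11 held it, of the enzymes 2 of 5, and of the transporters 0 of 2. Outside these 3 lists it was in 10 of 103 members (9.71%). Among genes whose smallest fold was above 1.5 and up to 2, just under the rule, 4 of 209 held it (1.91%), as did 4 of 232 genes that were more than 2 times DMSO day 4 but not members (1.72%). In the 103 genes that were lowest with C2 ceramide by the mirrored rule it was in 0, too few windows to read from a count of 0 beside 1.7%. A match of 8 letters is a description of the sequence and does not say that a factor bound there.

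Windows of 7 members with this motif, all free of exons in the GENCODE M21 annotation of GRCm38, show where it lies. Each is written 5′ to 3′ on the strand of its gene, with up to 40 bases on each side, and the capitals mark the 8 bases of the motif, printed as its reverse complement where it lies on the opposite strand. The first 4 are the genes of the stress response list with the motif in such a window, followed by Pck2 of the enzymes, Hrk of the Bcl-2 family and Nr5a2 of the pluripotency list.
Chac1: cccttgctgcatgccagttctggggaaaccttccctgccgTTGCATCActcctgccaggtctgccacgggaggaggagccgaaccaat
Jdp2: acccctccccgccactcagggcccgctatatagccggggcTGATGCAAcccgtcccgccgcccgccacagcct
Atf3: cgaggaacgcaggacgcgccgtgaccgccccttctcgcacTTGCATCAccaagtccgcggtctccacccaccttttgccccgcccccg
Herpud1: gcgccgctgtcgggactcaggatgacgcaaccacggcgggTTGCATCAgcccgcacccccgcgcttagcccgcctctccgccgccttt
Pck2: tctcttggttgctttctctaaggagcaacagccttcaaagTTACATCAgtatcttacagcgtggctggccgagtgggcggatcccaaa
Hrk: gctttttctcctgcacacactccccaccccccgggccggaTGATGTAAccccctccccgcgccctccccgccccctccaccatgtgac
Nr5a2: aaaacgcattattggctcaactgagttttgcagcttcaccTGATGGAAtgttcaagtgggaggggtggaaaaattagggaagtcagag

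The Chac1 window lies at chr2:119351009-119351096 on the plus strand, between genes, and its motif begins 193 bases before the start. The Jdp2 window is at chr12:85599343-85599415 on the plus strand, in an intron of longer Jdp2 transcripts, with the motif 33 bases before the start. For Atf3 it is chr1:191183396-191183483 on the minus strand, also intronic to longer transcripts, with the motif 110 bases before the start. The Herpud1 window, chr8:94386277-94386364 on the plus strand, and the Pck2 window, chr14:55540123-55540210 on the plus strand, lie in introns of the noncoding genes Gm15890 and Gm10876, and their motifs begin 112 and 103 bases before the start. The Hrk window at chr5:118169610-118169697 on the plus strand and the Nr5a2 window at chr1:136953645-136953732 on the minus strand are intronic to longer transcripts of the same genes, with the motif 114 and 62 bases before the start. The motif was therefore not at a fixed distance, and in these 7 windows it was read as TTGCATCA in 3, TTACATCA in 1 and a form beginning with TGATG in 3. The 10 members with the motif that are not printed were Nupr1, Srgn, Gadd45g, Serpinf1, Arid5a, Tubb3, Asns, Ifitm3, Phf11d and Synrg.

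Of the other 9 motifs, 4 were at close shares in members and in all genes tested. The antioxidant response element TGACNNNGC was in 11.6% of members and 12.2% of all, the AP-1 site TGANTCA in 4.13% and 3.62%, the E-box CACGTG in 9.92% and 9.08%, and the CCAAT box CCAAT in 33.9% and 37.9%. The TATA box TATAAA was in 16 of 121 members (13.2%) and in 5.48% of all, the sterol regulatory element TCACNCCAC in 2.48% and 1.01%, and the E2F site GGCGGGAA in 2.48% and 3.99%. The cAMP response element TGACGTCA was in 0 of 121 members and 3.08% of all. The ER stress response element, CCAAT and CCACG 9 bases apart, which contains a CCAAT box, was in 0 of 121 and 0.161%. At so low a share of all, 121 windows are too few to read from a count of 0. The windows of members had a median GC content of 60.8%, beside 61.2%, and a median of 14 CpG dinucleotides, beside 17.

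**Figure D3:**
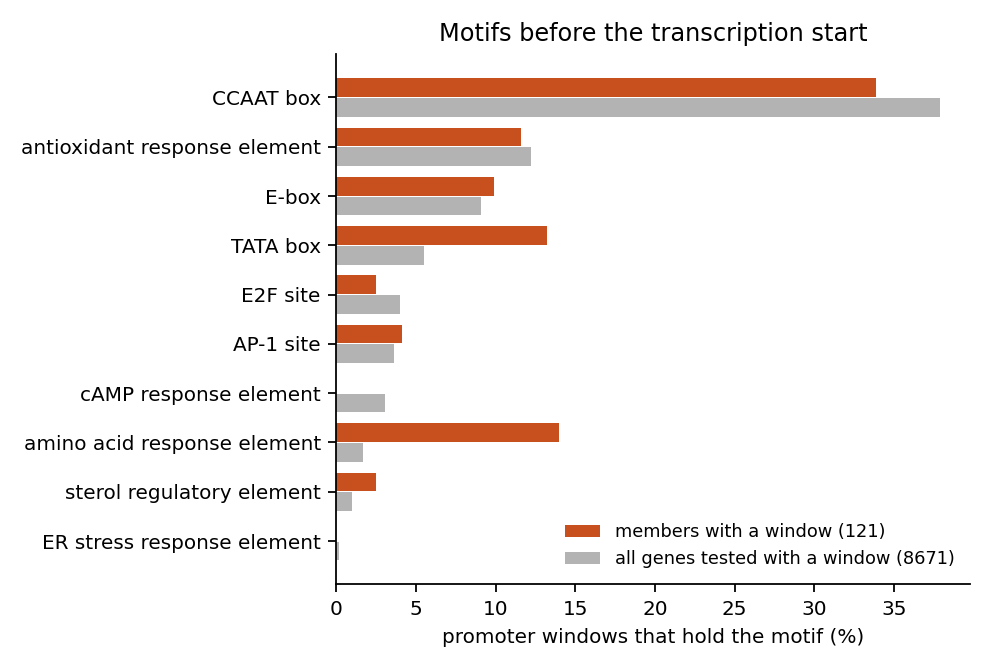
Share of promoter windows (the 250 bases before the start, in percent) that hold each of 10 motifs, for 121 members and for 8671 genes tested. The amino acid response element stands at 14.0% and 1.7% and the TATA box at 13.2% and 5.48%. The cAMP and ER stress response elements are at 0 in the members, beside 3.08% and 0.161% of all.

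Of 19 genes tested on a list of naive pluripotency, 11 were members (57.9%, beside 1.63% of all). At a threshold of 3 in place of 2, 4 genes of this list met the rule and 7 of the stress response list, and at 4 it was 1 and 4. With C2 ceramide, all 19 had a higher TPM than in either DMSO library (34.7% of all genes tested). Nr0b1, a nuclear receptor without a DNA-binding domain that restrains differentiation of ES cells, was at 32.2 TPM on DMSO day 3, 18.7 on DMSO day 4 and 119 with C2 ceramide. Tcl1, a coactivator of the kinase AKT, was at 9.99, 8.83 and 43.1 TPM. Zfp42, the ES cell marker Rex1, was at 120, 78.2 and 252 TPM. Nr0b1 and Zfp42 were lower on DMSO day 4 than on day 3, Tcl1 did not differ between these days beyond its interval, and C2 ceramide on day 4 lay above the level of day 3 in each. Over DMSO day 3, the earlier control, the log2 ratio was 1.89 (interval 1.81 to 1.98) for Nr0b1, 2.11 (interval 1.94 to 2.29) for Tcl1 and 1.07 (interval 1.03 to 1.12) for Zfp42.

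Targets and relatives of LIF signalling were in the same list. Socs3, the feedback inhibitor that STAT3 induces, was at 1.35, 2.52 and 9.43 TPM. Klf4 and Tbx3, transcription factors that stand for LIF in ES cells when supplied in excess, were at 3.53, 3.33 and 10.8 TPM and at 6.98, 8.13 and 27.3 TPM. Of these, Klf4 was level between the DMSO days, and Socs3 was higher on DMSO day 4 than on day 3. Nr5a2, a nuclear receptor that binds the Pou5f1 gene, stood much lower, at 0.564, 0.341 and 1.85 TPM and 44, 32 and 141 counts. The further members of the list were Prdm14, Jam2, Klf5 and Fbxo15. Among listed genes outside the rule, Nanog was at 87.9, 78.9 and 106 TPM, Sox2 at 102, 51.2 and 120 TPM, and Esrrb at 6.60, 4.26 and 11.0 TPM. For Sox2 and Esrrb the fold passed 2 over DMSO day 4 (2.35 and 2.58) but not over DMSO day 3 (1.18 and 1.66). Among genes annotated to the cellular response to LIF, 8 of 104 were members (7.69%, beside 1.63% of all), Msc, Socs3 and Nr5a2 with the widest ratios. No gene of the formative and primed epiblast list, which describes the state after naive pluripotency, was a member among 17 tested. Beside 1.63% of all, 17 genes are too few to read from a count of 0. Over DMSO day 4, 3 of the 17 were more than 2-fold higher, 3 were under 0.5, and the median log2 ratio was 0.24. Fgf5, a usual marker of that state, was at 176, 253 and 86.6 TPM, and Pou3f1, another, at 97.2, 20.7 and 73.4 TPM.

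Germ cell and meiosis genes had smaller counts. Of 15 primordial germ cell genes tested 3 were members, and of 27 meiosis and germline defence genes 4 were (14.8%), beside 1.63% of all. Dazl, an RNA-binding protein that germ cells need, was at 1.52, 1.64 and 8.24 TPM, but at 57, 86 and 208 counts. Its TPM was thus 5.02-fold above DMSO day 4, a log2 ratio of 2.33, whereas the ratio of counts per library total was 1.27 on the log2 scale, because a transcript of 600 bases led with C2 ceramide. Prdm14, a repressor shared by ES cells and germ cell precursors, was at 3.58, 3.27 and 10.5 TPM. Ifitm3, a membrane protein of germ cell precursors that also hinders virus entry, was at 184, 180 and 401 TPM, even in both DMSO libraries. Tex11, Mei4 and Syce1, which act in meiotic recombination and chromosome pairing, had between 188 and 259 counts with C2 ceramide. The germ cell markers Ddx4, Nanos3 and Dppa3 were not members, with Ddx4 at 7.20, 4.81 and 6.36 TPM and Dppa3 at 16.5, 28.8 and 52.8 TPM.

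Of 15 neuroectoderm and neural progenitor genes tested 3 were members, and of 17 neuronal genes 2 were (11.8%), beside 1.63% of all. The neuroectoderm list went both ways, with 6 of its 15 genes more than 2-fold above DMSO day 4, 5 under 0.5 and a median log2 ratio of −0.09. Gbx2, a homeobox factor needed for the anterior hindbrain and a STAT3 target in ES cells, was at 2.37 TPM on DMSO day 3, 2.76 on DMSO day 4 and 17.2 with C2 ceramide. Vax2, which patterns the ventral retina, was at 5.65, 1.75 and 17.2 TPM. Hesx1, a homeobox gene of the anterior neural plate, was at 0.811, 2.72 and 6.05 TPM. The DMSO course differed among the 3: Gbx2 was even, Vax2 was lower on day 4 and Hesx1 higher. Gbx2 and Vax2 overlap noncoding genes on the other strand, which had 111 and 356 counts (D130058E05Rik) and 61 and 162 counts (Vax2os) on DMSO day 4 and with C2 ceramide, and the kit did not mark strand, so their reads cannot be fully told apart. Tubb3, a tubulin of neurons, was at 6.93, 3.69 and 16.5 TPM, and Gap43, a growth cone protein, at 12.1, 3.97 and 27.7 TPM. Crabp2, a carrier of retinoic acid, was at 31.8, 10.7 and 74.7 TPM. These 3 were lower on DMSO day 4 than on day 3, and C2 ceramide exceeded both. Crabp2 was the only member among 12 retinoic acid genes tested (8.33%, beside 1.63% of all). Over DMSO day 4, 2 of the 12 were more than 2-fold higher, 6 were under 0.5, and the median log2 ratio was −1.02. Over DMSO day 4, 6 of the 17 neuronal genes were more than 2-fold higher, 2 were under 0.5, and the median log2 ratio was 0.53. Under the count filter, Elavl3 was at 0.527, 0.152 and 0.105 TPM, Dcx at 0.059, 0.342 and 0.086, and Neurod1 at 1.03, 0.22 and 0.799. Sox1 was listed at 0 with DMSO and at 0.524 TPM with C2 ceramide, also under the count filter.

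**Figure D4:**
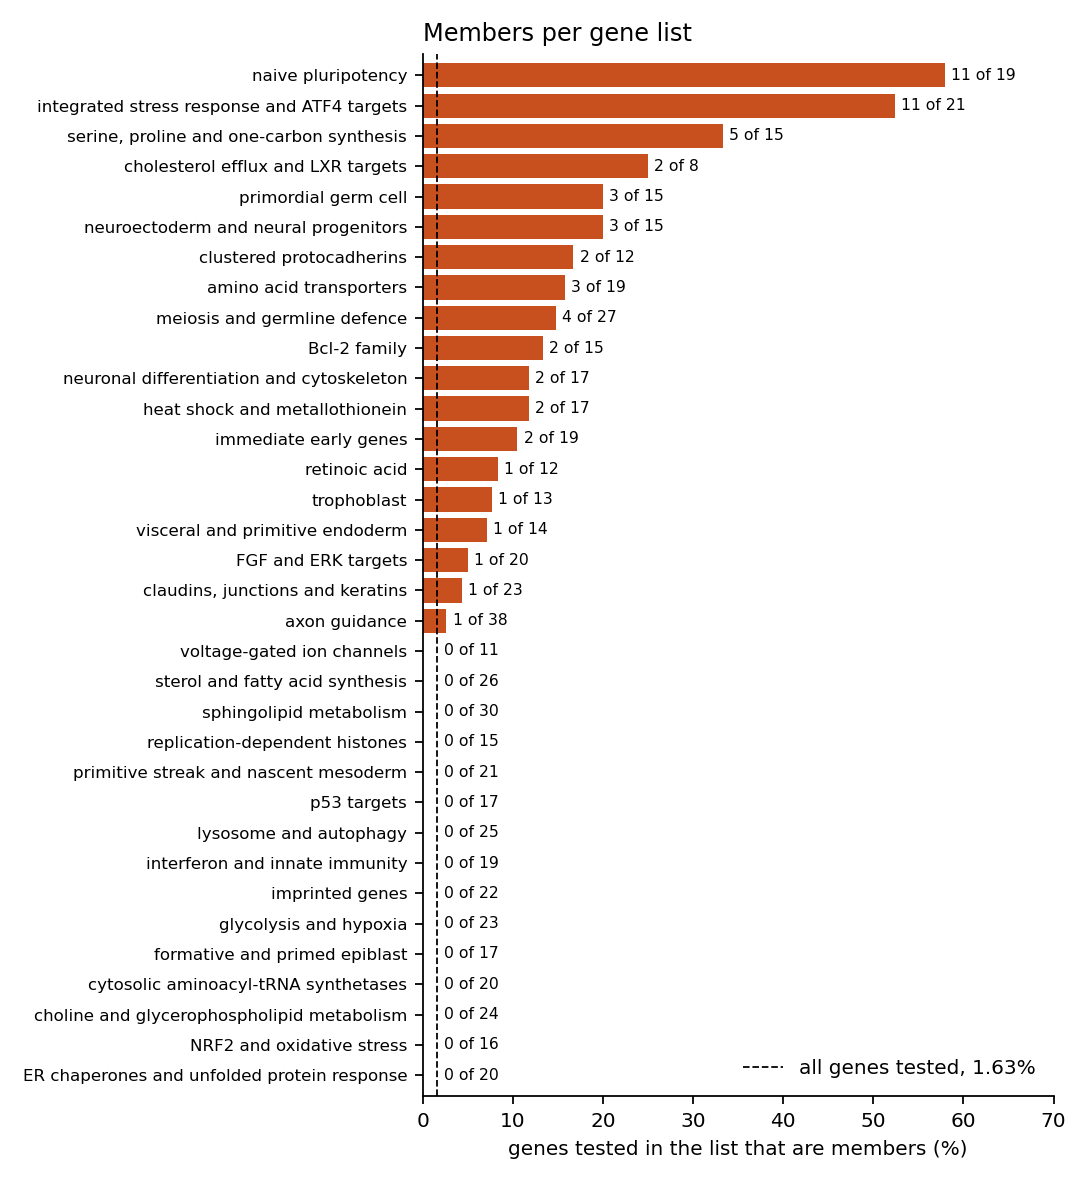
Share of the genes tested in each list that are members, in percent, with the number of members beside each bar and a dashed line at 1.63%, the share of all genes tested. Naive pluripotency (57.9%) and the integrated stress response (52.4%) lead, and 16 of the 35 lists hold no member. The lists were chosen with earlier results of these data known. The 2-cell-like list is left out because only 1 of its genes was tested.

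Members on lists of lipid handling, protein folding and cell death were few. On the list of cholesterol efflux and targets of the sterol-sensing receptor LXR, 2 of 8 genes tested were members (25.0%, beside 1.63% of all, as for the lists named next, which are too short to read from a count of 0). Abca1, the pump that loads cholesterol onto lipoprotein, was at 0.091 TPM on DMSO day 3, 0.083 on DMSO day 4 and 0.632 with C2 ceramide, and at 27, 25 and 193 counts. Nr1h3, which encodes LXR alpha, was at 1.39, 1.62 and 3.41 TPM. The level of Abca1 remained low although its folds were 6.95 and 7.61. On the list of sterol and fatty acid synthesis none of 26 genes tested was a member or higher with C2 ceramide than in both DMSO libraries, and 13 had a ratio below 0.5 over DMSO day 3. The sphingolipid list, which holds the enzymes that make and use ceramide, had 0 members among 30 genes tested, and its median log2 ratio was 0.09 over DMSO day 4. The small heat shock proteins Hspb1 and Cryab, 2 of 17 genes on their list (11.8%), were at 442, 385 and 951 TPM and at 2.75, 7.30 and 20.6 TPM. Hspb1 had the highest TPM of any member, and the large chaperone Hspa8 was at 2357, 1855 and 1851 TPM. In the Bcl-2 family, 2 of 15 genes were members (13.3%) and they have opposite roles. Hrk, a promoter of cell death, was at 0.725, 0.258 and 2.60 TPM, and Bcl2, a protector, was at 0.435, 1.21 and 3.01 TPM. None of 17 p53 targets tested was a member.

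Most of the set lay outside the lists, since 136 of the 190 members were in none of the 35 lists. Among the abundant ones, Spp1, the secreted adhesion protein osteopontin, was at 149 TPM on DMSO day 3, 82.4 on DMSO day 4 and 458 with C2 ceramide. Ckb, brain creatine kinase, was at 136, 124 and 351 TPM. Ifrd1, a stress-related transcriptional regulator, was at 73.3, 74.1 and 150.0 TPM. Spp1 was lower on DMSO day 4, and Ckb and Ifrd1 were nearly level between the DMSO days. Thbs1, a matrix protein that limits vessel growth, was at 3.75, 4.33 and 14.8 TPM, and Aqp3, a channel for water and glycerol, at 4.71, 3.91 and 18.5 TPM. Folr1, a folate receptor, was at 7.16, 6.57 and 30.8 TPM, and it overlaps Anapc15 on the other strand. Ly6a, the surface antigen Sca-1 of a family of similar genes, was at 5.66, 6.75 and 38.5 TPM. In these 4 genes the DMSO libraries differed little, and the smallest fold of C2 ceramide over either was 3.43. Calcoco2, an autophagy receptor at 3.79 and 1.32 TPM with DMSO on days 3 and 4, was 5.02-fold above the former and 14.4-fold above the latter. Mme, the peptidase neprilysin, was at 4.24, 3.76 and 13.1 TPM, and the keratin gene Krt42 at 2.94, 2.88 and 15.4 TPM.

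Several members encode signalling molecules, a group put together after their values were seen. In the WNT pathway, the ligands Wnt7b and Wnt9a were at 0.223, 2.06 and 4.30 TPM and at 0.094, 0.481 and 1.27 TPM. Notum and Rnf43, secreted and membrane-bound inhibitors of WNT signalling that the pathway itself induces, were at 1.31, 1.39 and 3.77 TPM and at 0.691, 0.806 and 1.82 TPM. Both ligands were already higher on DMSO day 4 than on day 3, whereas the inhibitors differed little between these days. The ligand gene Wnt3, a streak marker and no member, went the other way over DMSO day 4, at 4.34, 18.4 and 3.96 TPM. Of 125 genes tested in the KEGG WNT pathway, 5 were members (4.0%, beside 1.63% of all). The activity of the pathway was not tested. Cntfr, a receptor chain for cytokines of the LIF family, was at 7.28, 5.46 and 16.9 TPM. Fgfbp1, a carrier that releases FGF from the matrix, was at 19.6, 18.2 and 51.3 TPM, and Fgfr3, an FGF receptor, at 0.349, 0.764 and 2.84 TPM. Fgfbp1 was the only member among 20 genes tested on the list of FGF and ERK targets (5.0%, beside 1.63% of all). Over DMSO day 4, 2 of the 20 had a ratio above 2, 4 had a ratio under 0.5, and the median log2 ratio was −0.37. Id2, an inhibitor of helix-loop-helix factors, was at 33.7, 29.7 and 99.7 TPM, and Msc, a helix-loop-helix repressor, at 0.696, 1.19 and 9.91 TPM. Sema3b, a secreted guidance cue, was at 1.46, 1.37 and 4.13 TPM. It was the only member among 38 axon guidance genes tested (2.63%, close to 1.63% of all). Over DMSO day 4, 13 of the 38 had a TPM ratio under 0.5 and 4 had a ratio above 2. The collagen gene Col1a2 was at 0.381, 1.16 and 5.93 TPM, and the fibroblast marker Col1a1, at 0.331, 1.33 and 1.29 TPM, had 57, 73 and 229 counts, so that its TPM and counts differed in direction over DMSO day 4. Rhox6, a homeobox gene of the X chromosome, was at 1.16, 3.48 and 9.61 TPM. It was the only member among 13 trophoblast genes tested (7.69%, beside 1.63% of all). Of these 13, 4 had a ratio under 0.5 over DMSO day 4 and 1 had a ratio above 2.

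In the annotation deposited with the table, members were often secreted or surface proteins. Of 185 members with a cellular component term, 26 (14.1%) were annotated to the extracellular region, beside 503 of 11159 genes tested (4.51%), and 24 (13.0%) to the extracellular space, beside 3.97%. Cell surface was given for 10.3% and 2.99%, extracellular matrix for 3.24% and 0.833%, and plasma membrane for 24.3% and 17.8%. Members were less often annotated to the cytosol (15.1% and 25.2%), the mitochondrion (8.65% and 12.8%) and the nucleus (32.4% and 39.6%). DNA-binding transcription factor activity was given for 14 of 178 members with a function term (7.87%) and for 4.04% of genes tested. Of 1915 biological process terms with at least 10 genes tested, 30 held at least 3 members making up at least 10% of the term, beside 1.63% of all genes tested. They included amino acid transport (5 of 32, among them Slc1a1, Slc6a9 and Slc7a1), intrinsic apoptotic signalling after endoplasmic reticulum stress (5 of 31, among them Chac1, Trib3 and Cebpb), oogenesis (4 of 25, among them Dazl, Sohlh2 and Ptn), hindbrain development (3 of 12: Gbx2, Ptn and Gli2) and negative regulation of angiogenesis (7 of 60, among them Ngfr, Thbs1 and Dcn). These shares are counts without a test, and the terms share genes.

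The rule set no direction between the DMSO libraries. From day 3 to day 4 with DMSO, 141 of the 190 members (74.2%) stayed within 2-fold, beside 89.3% of all genes tested. In 25 members (13.2%) the day 4 TPM was more than 2 times that of day 3, beside 7.07% of all, and in 24 (12.6%) it was under 0.5 times that of day 3, beside 3.67%. The median log2 ratio was −0.09, beside 0.06, and for 81 members the counting interval included no difference. Members had under 200 counts more often than all genes tested (30.5%, beside 14.2%), and the share within 2-fold was 90.6%, beside 93.9%, with 1 TPM added and 88.5%, beside 94.3%, at 500 counts or more. Members thus lay on either side in nearly equal numbers. Among named members, Chac1, Jdp2, Cryab, Hesx1 and Bcl2 belonged to the 25, and Calcoco2, Hrk, Vax2, Crabp2 and Gap43 to the 24. Lrp2, a large endocytic receptor, also belonged to the 24, at 1.02 TPM on DMSO day 3, 0.18 on DMSO day 4 and 2.54 with C2 ceramide. It was the only member among 14 genes tested on the visceral endoderm list (7.14%, beside 1.63% of all). Over DMSO day 4, 7 of the 14 had a ratio under 0.5 and 2 had a ratio above 2.

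**Figure D5:**
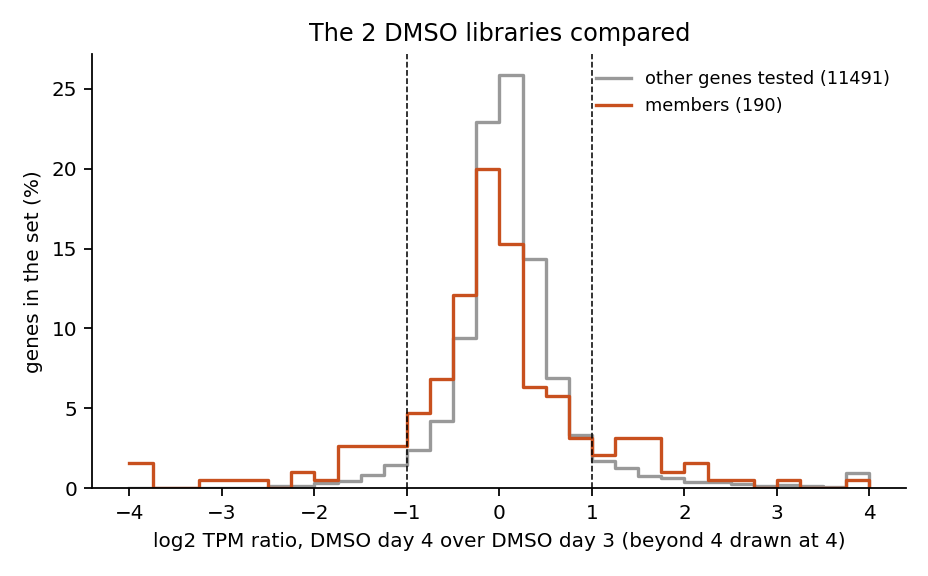
Distribution (percent of genes) of the log2 TPM ratio between the DMSO libraries, day 4 over day 3, for the 190 members and the other genes tested, with dashed lines at 2-fold. Of the members 12.6% lie below and 13.2% above 2-fold, and low counts are more frequent among them (30.5% under 200 counts, beside 14.2%).

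Transcript values showed which isoforms carried the increase. In 179 members (94.2%, beside 70.5% of all genes tested) the transcript with the largest gain in TPM over DMSO day 4 was protein-coding. Every member rose over DMSO day 4 by the rule, unlike the genes tested as a whole (median log2 ratio −0.02). The difference between these shares is therefore not read as a trait of the members. The leading transcript with C2 ceramide differed from that of DMSO day 4 in 34 of 188 members with a value there (18.1%, beside 9.53% of all genes tested) and from that of DMSO day 3 in 23 of 189 (12.2%, beside 10.1%). In Tbx3, a transcript of 4856 bases was at 3.02, 2.78 and 16.0 TPM and took 69.3% of the increase, while the transcript that led on DMSO day 4 was at 5.34 TPM with C2 ceramide. In Dazl, the 600-base transcript was at 0.239, 0.378 and 4.90 TPM and rested on 45.9 estimated counts with C2 ceramide. In Arid5a, an RNA-binding protein gene, the leading transcript with C2 ceramide was of the nonsense-mediated decay class, at 0.734, 0.751 and 4.57 TPM. For Psat1 and Pck2 the leading transcript with C2 ceramide also led on DMSO day 4 and differed only from that of day 3. The TPM and count ratios differed by more than 1.5 times in 15 members, and such splits among transcripts are estimates by the authors' software.

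The members were spread over the genome. Among the autosomes and the X chromosome, their share of the genes tested ran from 0.686% on chromosome 17 to 2.26% on the X chromosome. In the order of genes tested, 2 pairs of members were neighbours: Nckap1l and Pde1b on chromosome 15, whose starts are 49240 bases apart, and Igsf11 and Gap43 on chromosome 16, whose starts are 3355771 bases apart. A gene with at least 10 counts overlapped 32 members, on the same strand in 9 and on the other strand in 25. No share over all genes tested was computed for neighbours or overlaps, so these counts are not read as traits of the members. For Irak3, an inhibitor of Toll-like receptor signalling, the overlapping gene Tmbim4 had 1766 counts on DMSO day 4 and 1743 with C2 ceramide, while Irak3 had 29 and 257. For Jdp2, the overlapping Gm47863 had 2 and 48 counts beside 194 and 1073 for Jdp2. Rhox6, Spata31d1b and Ly6a belong to families of similar genes, which can make counts uncertain. The counts of Rhox6 and Spata31d1b were not all whole numbers, and those of Ly6a were.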

How the data were processed

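RNA of EBs was amplified with SMART-Seq v4, which does not keep strand, and sequenced in 3 libraries, 1 per condition. Per the labels and the study's methods, the authors mapped the reads with DRAGEN with GRCm38 release M25 as the reference. The deposited TPM values were made by the authors and correct for transcript length and library size, and the deposited estimated counts are the authors' reads assigned per gene and per transcript. The deposited gene table also gives GO terms. All columns matched a sample.

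A TPM of 0 was set to 0.001. Genes were kept at 100 counts in 1 library or more, and a ratio above 2 or below 0.5 was counted. Total counts were between 33619197 and 35290094. Each ratio has an exact conditional (Clopper-Pearson) 95% interval computed from counts. Such intervals and bounds hold counting error alone, since PCR copies are not independent molecules. A gene at 0 counts was set to 3 counts for a lower bound. The value of 1 such gene is not reported here. With 1 library per condition no test was run. The members and the 35 gene lists were chosen with earlier results of these data known. In the lists, 26 older symbols were matched through gene IDs, and 608 of 847 genes were tested.

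Genes named are the 20 members with the largest smaller ratio at 10 TPM or more, the 10 most abundant, up to 6 per list, up to 3 per annotation term, those next to the threshold, neighbours and members with a changed leading transcript. Others were named after their values were seen, to complete a list, a pathway or a motif.

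Promoters came from RefSeq. A window was found for 121 members, 54 had no entry on their chromosome and strand, and for 15 the nearest window was over 1000 bases away. Windows were thus read for 63.7% of members and 74.2% of genes tested. The GENCODE M21 annotation of GRCm38 was used for exons and introns.

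For the alternatives, counts were rounded and scaled with edgeR 4.0.16 (TMM) and DESeq2 1.42.0 (size factors) in R 4.3.3. The other steps used Python 3.11.15, NumPy 2.4.6, pandas 2.3.3, SciPy 1.17.1 and Matplotlib 3.10.9. The selection and the intervals were tested on simulated data. Other alternatives were a pseudocount, other count filters, other thresholds, coding transcripts only and a shorter promoter window.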

Additional observations from a re-analysis of the deposited data

How the results depend on the processing

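The number of genes highest with C2 ceramide depended on the filter and threshold. It was 106 with 1 TPM added to every value, 564 with a filter of 10 counts, 985 with no filter and 78 at 500 counts, and 482, 54 and 27 at thresholds of 1.5, 3 and 4. With the counting interval above 2 it was 108. It stayed near 190 under TMM (185, 184 of them shared), DESeq2 size factors (186, 185 shared), TPM alone (220) and counts alone (207). The share of members within 2-fold between the DMSO libraries was 90.6%, 56.4%, 66.4% and 88.5% with 1 TPM added, 10 counts, no filter and 500 counts, and 82.6%, 66.7% and 63.0% at thresholds of 1.5, 3 and 4. Members in the lists numbered 88 without a filter, and 97, 19 and 9 at those thresholds. By list, thresholds of 3 and 4 left 7 and 4 stress response genes, 4 and 1 naive pluripotency genes, 0 and 0 enzymes and 2 and 0 transporters. In the order of all protein-coding genes, 2 members were neighbours, not 4. The amino acid response element was in 4.96% of members in the 100 bases before the start (0.507% of all) and in 4.13% on the given strand only (0.796% of all). Of terms with at least 20 genes tested, 18 held at least 3 members at 10% or more. Fewer genes or bases enter under stricter settings by construction, and other causes were not tested. Low counts limit the 58 members under 200 counts most. Without a further library per condition, neither the spread between cultures nor the effect of leaving out a library could be measured. No paired analysis was possible because each condition had 1 library.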

Other observations

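Among 715 noncoding genes with enough counts, 9 met the same thresholds (1.26%), of which 3 were lincRNAs and 2 were of the misc_RNA class. The latter were Rn7sk, the 7SK RNA that holds back the elongation kinase P-TEFb, at 37.1 TPM on DMSO day 3, 32.7 on DMSO day 4 and 171.8 with C2 ceramide, and Gm24447, at 12.7, 6.93 and 71.9 TPM. Both stood apart with C2 ceramide, and their counts on DMSO day 4 were 86.0 and 19.02. Their counts were not whole numbers in any library, so reads may be shared with similar sequences and both values are uncertain. Mir9-3hg, the host gene of a miR-9 copy that is known from neural progenitors, was at 0.783, 1.90 and 4.13 TPM. D130058E05Rik, which overlaps the member Gbx2 on the other strand, was at 3.24, 2.35 and 7.30 TPM. The remaining ones were H2-Bl, Eprn, C330002G04Rik, BC064078 and Gm3650.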
